A study of Mus musculus with 6 samples.

Results

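Dopamine is made, packaged, recaptured and degraded by a small set of proteins, and 9 genes for them were followed here in PGC-1alpha-null mouse striatum. The set was Th, Ddc, Gch1, Slc18a2, Slc6a3, Nr4a2, Aldh1a1, Maoa and Maob, taken by gene symbol, with all of their probe sets that the platform annotation gives to 1 gene. These are 9 of the 18193 genes named on the array, and 17 of its 45101 probe sets. RNA came from striata of 3 knockout (KO) mice, PGC-1a-/-, and 3 wild-type (WT) littermates, PGC-1a+/+, all female and 6 months old, with 1 Affymetrix array per mouse. Both genotypes were bred from heterozygous PGC-1a+/- founders of an established line, and no other allele or treatment is given for either group. The deletion is present in every tissue of such a null mouse, and the labels do not say which exons it removes. The RNA of KO 3 is labelled cytoplasmic and that of the other 5 mice total. Differences of those probe sets of the 9 genes that were tested are therefore also given without KO 3.

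PGC-1alpha is a transcriptional coactivator of mitochondrial and antioxidant genes. In the midbrain, tyrosine hydroxylase (Th) uses tetrahydrobiopterin, whose first synthetic enzyme is GTP cyclohydrolase (Gch1), to turn tyrosine into L-DOPA, and aromatic L-amino acid decarboxylase (Ddc) turns L-DOPA into dopamine. The vesicular transporter VMAT2 (Slc18a2) loads it into vesicles and the plasma membrane transporter DAT (Slc6a3) takes it back up. Monoamine oxidases A and B (Maoa, Maob) on the outer mitochondrial membrane oxidise it, and aldehyde dehydrogenases such as Aldh1a1 clear the aldehyde that results. The striatum receives dense dopamine axons, but the cell bodies that hold most of the message for Th, Slc6a3 and Slc18a2 lie in the midbrain, outside the dissected tissue.

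The value of each probe set is a MAS5 signal, a linear intensity scaled so that its mean without the extreme 2% at each end is 150 on every array. Signals with a mean under 27 over the 6 arrays lie near background on this scale. That held for 6 of the 17 probe sets, namely both for Gch1, the only one for Slc6a3, a second one for Ddc and 2 of 6 for Nr4a2. These were left out of the test across the array by its filter on low signals, and the remaining 11 probe sets, from 7 genes, were tested. Of the 27022 probe sets tested over the whole array, 0.470% passed an adjusted p under 0.05 in limma. None of the 11 passed it, and 2 had an unadjusted p under 0.05, both higher in KO, where 4.11% of all probe sets tested were higher and 5.06% lower at that level. The groups did not overlap for these same 2 probe sets, for Th and Ddc, while over the whole array 6.52% of probe sets lay higher in all KO mice and 7.88% lower. The median KO minus WT difference of the 11 was -0.04 on the log2 scale, against -0.005 for all probe sets tested. As 4 of the 11 belong to Nr4a2, the sign turned with the brightest probe set of each of the 7 genes, where the median was 0.07, with 5 genes higher and 2 lower.

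The array check placed the tissue and the genotype. All 5 Ppargc1a probe sets were lower in the KO mice, by 2.17-fold to 3.81-fold. Striatal projection neuron genes were bright in both groups, with Penk at 6733 ± 350.4 in KO and 6296 ± 369.5 in WT and Ppp1r1b at 4109 ± 344.8 in KO and 3852 ± 797.1 in WT (SD, n = 3 each). Of 16 measured genes listed for midbrain dopamine neurons, 10 fell below the filter, among them the transcription factors Pitx3, En1, Foxa2 and Lmx1a. The means of the 12 probe sets of these 10 ran from 3.1 to 31.8 in KO and from 1.9 to 33.1 in WT. The other 6 passed the filter, and bulk values do not show which cells gave their signal. Calb1 was bright, at 3268 in KO and 3580 in WT, and Gfra1 read 176.4 in KO and 193 in WT. The rest were dimmer, with means down to 29.6 in KO (Sncg) and 24.3 in WT (Kcnj6). Pitx3 read 4.8, 7.4 and 7.2 in KO mice, against 6.3, 7.3 and 10.5 in WT mice. Also below the filter were 7 of 8 genes of serotonin, noradrenaline and histamine neurons, Tph2 and Slc6a4 included.

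**Figure D1:**
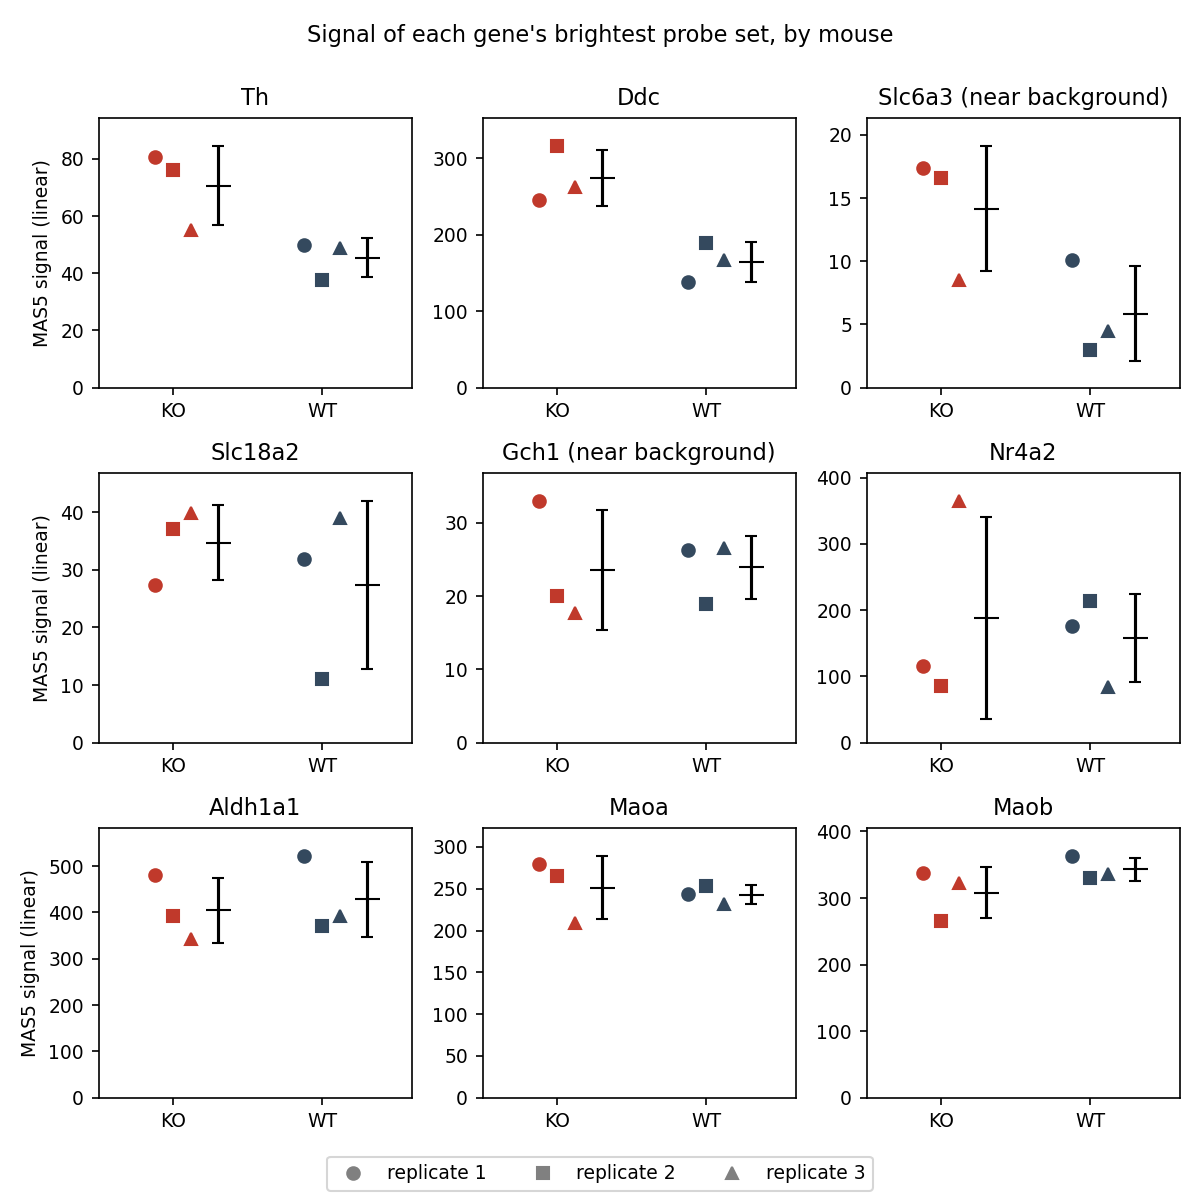
MAS5 signal (linear, own axis per panel) of the brightest probe set of each of the 9 genes. KO mice are left in red and WT mice right in blue, with the mean ± SD beside each group. Symbols give the replicate numbers, which the main fit did not treat as pairs. All 3 KO mice lie above all 3 WT mice for Th and Ddc, and the groups overlap for the other 7 genes.

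Ddc, the decarboxylase that completes dopamine synthesis, gave the clearest difference of the set. Its bright probe set, 1426215_at, read 245.6, 315.7 and 262.1 in KO mice, against 138, 189.6 and 166.8 in WT mice. The lowest KO value stood well above the highest WT value. The mean was 274.5 ± 36.6 in KO and 164.8 ± 25.9 in WT (SD, n = 3 each), a ratio of 1.67. On the scale of log2(signal + 16) the KO minus WT difference was 0.69 (SE 0.135, 95% interval 0.39 to 0.98), which is 1.61-fold with an interval of 1.31-fold to 1.97-fold. The limma adjusted p was 0.0506, just short of the threshold of 0.05, from an unadjusted p of 0.00024, and the exact permutation p was 0.1, the smallest that 3 against 3 can give. The call therefore turned on the processing. The adjusted p was 0.0417 with arrays centred on their medians, 0.045 with an offset of 64, 0.0476 with a filter at the 60th percentile and 0.045 with robust variance estimation, but 0.146 with no filter and 0.281 without the intensity trend. Without KO 3 the difference was 0.71 with an adjusted p of 0.125, and leaving out any 1 mouse gave 0.58 to 0.78.

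The second Ddc probe set, 1430591_at, was at the floor of the array. It read 2.1, 2.5 and 1.5 in KO mice, against 2.3, 1.9 and 2.1 in WT mice, and says nothing of a difference in either direction. The Ddc difference is therefore carried by 1 probe set. The tested genes next to Ddc on chromosome 11 did not pass: Ikzf1 on one side differed by 0.03 and Grb10 on the other by 0.17 by its brightest probe set. Over all 9 genes, 0 of 54 tested neighbours, 3 on each side, had a called probe set. Some neighbours of Maoa and Maob are the same genes and count again. Over the whole array 0.470% of probe sets tested were called, so few calls would be found among any 54 genes.

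Th, the rate-limiting enzyme of dopamine synthesis, was also higher in every KO mouse, by less and from a dimmer signal. Its only probe set, 1420546_at, read 80.8, 76 and 55 in KO mice, against 50, 37.7 and 48.7 in WT mice. KO 3 stood close to the WT range, and the other 2 KO mice were clearly above it. The mean was 70.6 ± 13.7 in KO and 45.5 ± 6.76 in WT (SD, n = 3 each), and the log2 difference was 0.49 (SE 0.19, 95% interval 0.08 to 0.89). This is 1.40-fold, with an interval of 1.06-fold to 1.86-fold. It did not pass adjustment (limma adjusted p = 0.421, unadjusted p = 0.0225, exact permutation p = 0.1), and its adjusted p lay between 0.349 and 0.732 under every alternative that kept it in the test (a filter at the 60th percentile removed it). Without KO 3 the difference was 0.625 (adjusted p = 0.364).

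In bulk tissue, more transcript per cell and more cells or processes of a type cannot be told apart, which holds for every value here. A marker of another tissue was also higher in every KO mouse. Ttr, the transthyretin gene that marks choroid plexus, read 3660, 2597 and 3062 in KO mice, against 1264, 1543 and 2193 in WT mice by its brightest probe set, and all 4 Ttr probe sets passed the test (brightest: difference 0.92, limma adjusted p = 0.0347). The brightest no longer passed when KO 1, KO 3, WT 1 or WT 2 was left out (limma adjusted p = 0.143, 0.114, 0.0896 and 0.136), nor with no filter, no intensity trend, robust variance estimation or gene means. Over the 17 alternatives its difference ran from 0.74 to 1.13 and its adjusted p from 0.00286 to 0.303. Of the 6 choroid plexus markers measured, 3 were tested, with a summed signal of 2844 to 3908 in KO and 1491 to 2431 in WT, most of it Ttr. The other 2 tested, Clic6 (206.4, 214.9 and 284.7 in KO mice, against 216, 202.9 and 193.8 in WT mice) and Sostdc1 (41.7, 31.5 and 36.9 in KO mice, against 10.3, 24.9 and 44 in WT mice), overlapped between groups and did not pass (limma adjusted p = 0.732 and 0.733). The defining markers Kl, Folr1 and Kcne2 were below the filter. The part of this in the Th and Ddc values was not tested.

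Promoter windows from RefSeq (build GRCm38.p6) are shown for Th and Ddc, the genes whose groups separated, and for Slc18a2, which shares a motif with Th. Each runs from 250 bases before to 50 after an annotated start, 5′ to 3′ on the gene's strand. Capitals mark matches on either strand to 4 motifs, namely CRE (TGACGTCA, bound by CREB), the NR4A monomer site NBRE (AAAGGTCA), the ERR monomer site ERRE (TCAAGGTCA) and the GC box (GGGCGG, bound by SP1). The NBRE and ERRE letters overlap in AAGGTCA. Th lies at chr7:142899946-142900245 (minus strand), Ddc has windows at chr11:11898095-11898394 (upstream start, minus strand) and chr11:11890359-11890658 (downstream start, minus strand), and Slc18a2 lies at chr19:59260628-59260927 (plus strand).
Th: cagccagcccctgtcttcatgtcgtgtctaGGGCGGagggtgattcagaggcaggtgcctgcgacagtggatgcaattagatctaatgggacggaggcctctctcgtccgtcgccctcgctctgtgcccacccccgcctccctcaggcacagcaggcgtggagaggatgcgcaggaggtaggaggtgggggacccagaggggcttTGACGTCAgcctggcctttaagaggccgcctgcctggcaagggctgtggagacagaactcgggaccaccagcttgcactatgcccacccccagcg
Ddc upstream start: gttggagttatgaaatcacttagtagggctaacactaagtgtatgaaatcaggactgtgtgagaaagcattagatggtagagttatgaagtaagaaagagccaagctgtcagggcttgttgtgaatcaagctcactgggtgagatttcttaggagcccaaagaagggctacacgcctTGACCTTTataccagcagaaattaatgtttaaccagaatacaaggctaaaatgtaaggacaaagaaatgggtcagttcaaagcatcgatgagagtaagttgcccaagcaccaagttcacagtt
Ddc downstream start: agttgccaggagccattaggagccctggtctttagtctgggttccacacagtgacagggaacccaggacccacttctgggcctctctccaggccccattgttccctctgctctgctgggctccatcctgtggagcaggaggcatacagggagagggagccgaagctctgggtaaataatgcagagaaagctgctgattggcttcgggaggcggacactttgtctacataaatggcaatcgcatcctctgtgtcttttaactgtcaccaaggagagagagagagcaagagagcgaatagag
Slc18a2: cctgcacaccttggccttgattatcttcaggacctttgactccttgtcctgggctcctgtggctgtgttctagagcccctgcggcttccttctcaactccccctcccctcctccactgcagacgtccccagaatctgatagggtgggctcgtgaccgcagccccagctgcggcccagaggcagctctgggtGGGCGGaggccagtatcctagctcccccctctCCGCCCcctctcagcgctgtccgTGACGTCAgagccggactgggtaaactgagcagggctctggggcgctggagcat

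The Th window holds 1 CRE, whose first base is at -45 relative to the start, and the Slc18a2 window holds 1 at -4. A CRE occurs in 1.79% of the 32851 promoter windows of the same length. Th and Slc18a2 each also have GC boxes, which 35.7% of all windows hold. The upstream Ddc window has 1 NBRE, at -73 on the opposite strand, where 1.51% of all windows hold one, and the downstream Ddc window has none of the 4 motifs. ERRE, found in 0.423% of all windows, was in none of the 10 windows of the 8 genes that matched the table. A match is a match of letters and not evidence of binding.

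The transporters were dim. Slc18a2 (VMAT2) read 27.3, 37 and 39.8 in KO mice, against 31.9, 11 and 39 in WT mice. The groups overlapped, and WT 2 alone was low. The difference was 0.28 (95% interval -0.31 to 0.88, limma adjusted p = 0.813), and it was -0.03 without WT 2. Slc6a3 (DAT) read 17.4, 16.6 and 8.5 in KO mice, against 10.1, 3 and 4.5 in WT mice, all near background. Here 2 KO mice were above all WT mice and KO 3 was within their range. Without the filter on low signals its difference was 0.46 (SE 0.22, 95% interval -0.02 to 0.95, limma adjusted p = 0.658). The offset of 16 is close to or above each of these signals, so the size of that difference is compressed.

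Gch1, which supplies the cofactor of Th, was near background by both probe sets. Probe set 1429692_s_at read 32.9, 20 and 17.7 in KO mice, against 26.3, 18.9 and 26.5 in WT mice, with overlap and a difference of -0.03. Probe set 1420499_at ran from 7.1 to 24.3 in KO mice and from 1.9 to 21.3 in WT mice. No difference was detectable at this signal.

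The other tested tetrahydrobiopterin genes averaged lower in KO mice. All 4 had a negative difference (median -0.22, against -0.005 for all probe sets tested). In limma 0 passed adjustment and 2 had an unadjusted p under 0.05, where 5.06% of all probe sets tested were lower at that level. Pts, the synthase that follows Gch1, read 192.5, 175.8 and 198.8 in KO mice, against 228.2, 237.5 and 219 in WT mice, without overlap. Its difference was -0.25 (SE 0.106, limma adjusted p = 0.474). Spr, sepiapterin reductase, which makes the final step, read 177.9, 162.1 and 194.4 in KO mice, against 213.6, 222.4 and 214.5 in WT mice, again without overlap (difference -0.27, limma adjusted p = 0.47). Qdpr, which regenerates the cofactor, averaged 4769 ± 315.7 in KO and 5218 ± 382.7 in WT (SD, n = 3 each) and overlapped. Pcbd1 read 44.1, 64.4 and 38.8 in KO mice, against 36.5, 56.7 and 85.3 in WT mice. It also overlapped (difference -0.18, limma adjusted p = 0.88). Over the whole array 7.88% of probe sets tested were lower in all KO mice, as Pts and Spr were. None of Pts, Spr, Th and Ddc passed the threshold.

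**Figure D2:**
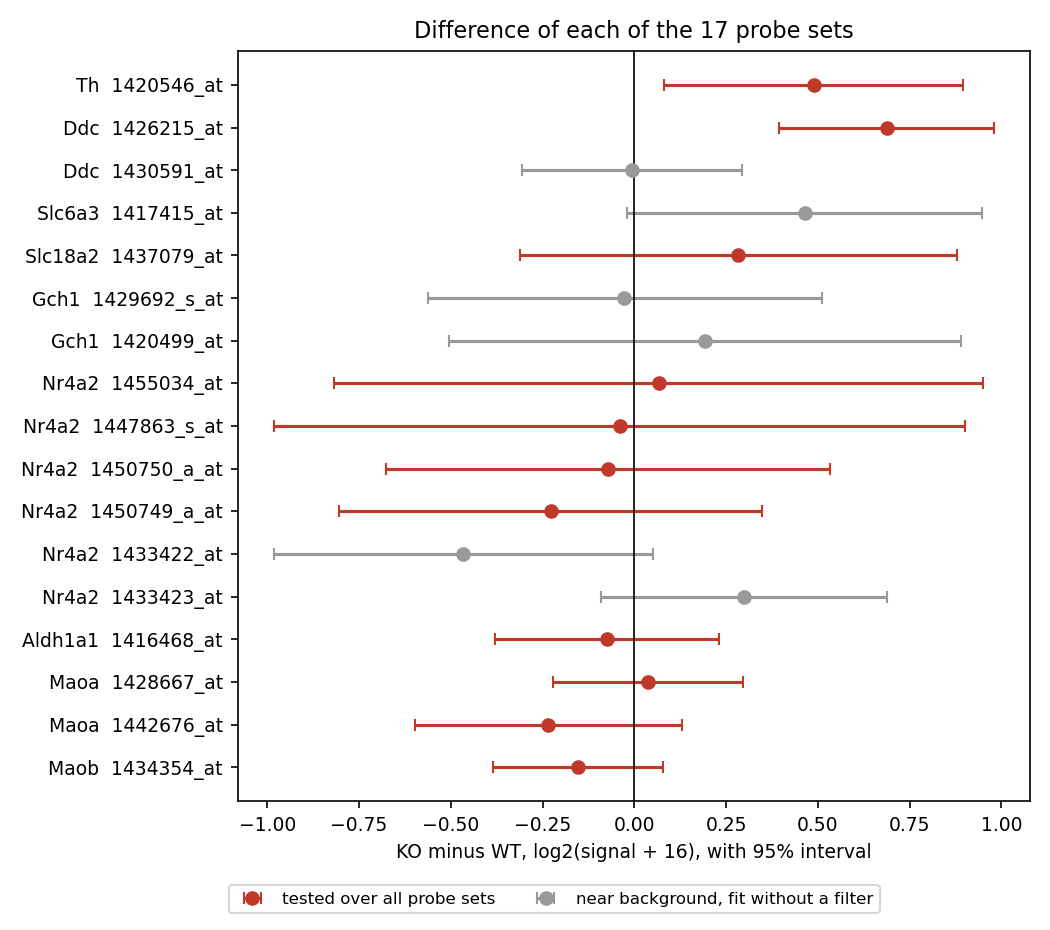
KO minus WT difference on the log2(signal + 16) scale with its 95% interval for all 17 probe sets, in red where tested over the array and in grey for the 6 near background, which come from the fit without a filter. The intervals of Th and Ddc (1426215_at) lie above 0 and all others cross it.

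No difference was detectable in Maob, Maoa or Aldh1a1, the breakdown enzymes of the set, whose 95% intervals all include 0. Maob, the form abundant in astrocytes, read 336.9, 265.6 and 322.4 in KO mice, against 362.5, 330.4 and 336.8 in WT mice. The groups overlapped, and KO 2 was the lowest. The mean was 308.3 ± 37.7 in KO and 343.2 ± 17 in WT (SD, n = 3 each), with a difference of -0.15 (95% interval -0.39 to 0.08, limma adjusted p = 0.722). As a fold this is 0.899, with an interval of 0.766 to 1.06, so a KO level below 0.766 of WT lies outside the interval. Without KO 2 the difference was -0.055.

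Maoa, the form abundant in catecholamine neurons, had 2 probe sets that differed in sign. Probe set 1428667_at read 279.2, 265.8 and 208.7 in KO mice, against 243.2, 253.8 and 231.9 in WT mice (difference 0.04, 95% interval -0.22 to 0.30, limma adjusted p = 0.961). Probe set 1442676_at read 98.7, 63.2 and 94.5 in KO mice, against 107.9, 97.9 and 99.7 in WT mice (difference -0.23, 95% interval -0.60 to 0.13, limma adjusted p = 0.729). The groups overlapped in both, and the sign of the gene rests on which probe set is read.

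Aldh1a1, which clears the dopamine aldehyde, read 480.8, 391.7 and 342.3 in KO mice, against 520.9, 370.7 and 392.7 in WT mice. Both groups spanned nearly the same range, and the difference was -0.08 (95% interval -0.38 to 0.23, limma adjusted p = 0.92). Aldh1a7, a close paralogue that lies beside it on chromosome 19, differed by -0.16 and did not pass (adjusted p = 0.879). Whether the Aldh1a1 probes also bind that transcript was not tested. Of 9 other tested genes for catechol and aldehyde breakdown, 4 were higher and 5 lower, with a median of -0.015, 0 calls in limma and 2 at an unadjusted p under 0.05. These were Aldh7a1 (difference 0.37, limma adjusted p = 0.32) and Sult1a1 (difference 0.47, limma adjusted p = 0.458), and both overlapped between groups. At that unadjusted level 4.11% of all probe sets tested were higher in KO.

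Nr4a2 (Nurr1), a nuclear receptor that maintains dopamine neuron identity and is also an activity-regulated gene of cortex and claustrum, varied far more between mice than between genotypes. Its brightest probe set, 1455034_at, read 116, 85.1 and 364.2 in KO mice, against 175.9, 213.9 and 84.3 in WT mice. KO 3 was the highest and WT 3 the lowest, with a 4.32-fold range. Probe set 1447863_s_at followed the same order of high and low mice, at 107.5, 71.2 and 270.2 in KO mice and 169.5, 229.6 and 57.5 in WT mice. Probe set 1450750_a_at did so but for KO 2 and WT 3, which changed places, at 66.2, 41.5 and 112.8 in KO mice and 76.5, 100.4 and 49.5 in WT mice. The differences of these 3 were 0.07, -0.04 and -0.07, with intervals reaching from -0.98 to 0.95, and limma adjusted p values from 0.968 to 0.99. Without KO 3 the difference of 1455034_at was -0.51 (adjusted p = 0.685).

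The other Nr4a2 probe sets did not follow this order. Probe set 1450749_a_at read 25.7, 47.6 and 75.8 in KO mice, against 74.3, 46.3 and 53.6 in WT mice (difference -0.23, limma adjusted p = 0.851). Near background, 1433422_at read 10.1, 22.1 and 17.9 in KO mice, against 28.9, 27.4 and 29.6 in WT mice, without overlap (difference -0.47, limma adjusted p = 0.688 with no filter). Probe set 1433423_at was below 10 in every mouse. Probe sets of 1 gene thus gave different orders of the same 6 mice.

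Of the 4 cortical excitatory neuron markers tested, 3 were high and low in much the same mice as Nr4a2. Slc17a7, the cortical vesicular glutamate transporter, read 88.3, 107.6 and 279.1 in KO mice, against 242.6, 184.7 and 116.3 in WT mice. Tbr1, a deep-layer transcription factor, read 43.4, 44.5 and 116.1 in KO mice, against 65.6, 57.9 and 26.5 in WT mice. Neurod6 read 46.5, 28.6 and 134 in KO mice, against 97.4, 75.3 and 42.6 in WT mice. KO 3 was the highest of the 6 mice for each of these 3 and for the Nr4a2 probe sets 1455034_at, 1447863_s_at and 1450750_a_at, and WT 1 and WT 2 exceeded the other 2 KO mice in all of them. Neurod1, the remaining marker, read 49.1, 36.9 and 58.1 in KO mice, against 51.6, 25.8 and 26.5 in WT mice. KO 3 was again the highest, but WT 2 and WT 3 lay below all KO mice. The summed signal of the 4 cortical markers tested ran from 217.6 to 587.3 in KO and from 211.9 to 457.2 in WT. KO 3 is also the mouse whose RNA is labelled cytoplasmic. The parts of that difference in RNA and of cortical tissue in the Nr4a2 values were not tested.

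**Figure D3:**
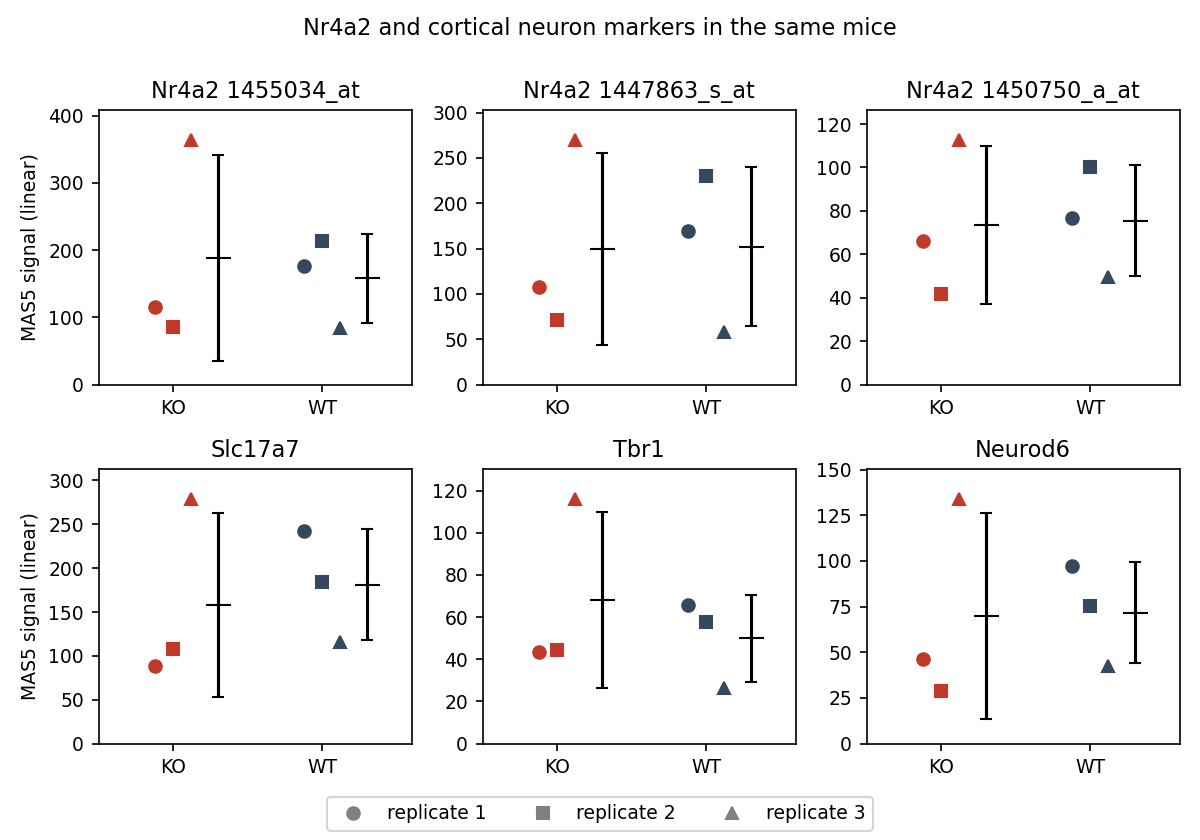
MAS5 signal (linear, own axis per panel) of 3 Nr4a2 probe sets (top) and of 3 cortical neuron genes (bottom) in KO mice, left in red, and WT mice, right in blue, with mean ± SD. KO 3 is the highest mouse in all 6 panels, at 364.2 for Nr4a2 1455034_at and 279.1 for Slc17a7. Neurod1, the remaining cortical marker tested, is not shown.

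On the receiving side of dopamine transmission no gene passed the test. Of 12 tested genes of striatal dopamine reception, 9 were higher and 3 lower in KO, with a median of 0.06 and 0 calls in limma, and none had an unadjusted p under 0.05. Drd2, the D2 receptor, averaged 917.3 ± 117.4 in KO and 788.2 ± 139 in WT (SD, n = 3 each), with a limma difference of 0.22 at an adjusted p of 0.64. Drd1, the D1 receptor, averaged 1966 ± 118 in KO and 1891 ± 177.2 in WT (difference 0.06, with an adjusted p of 0.884). Adcy5, the striatal adenylyl cyclase, gave 0.20 (adjusted p = 0.572).

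**Figure D4:**
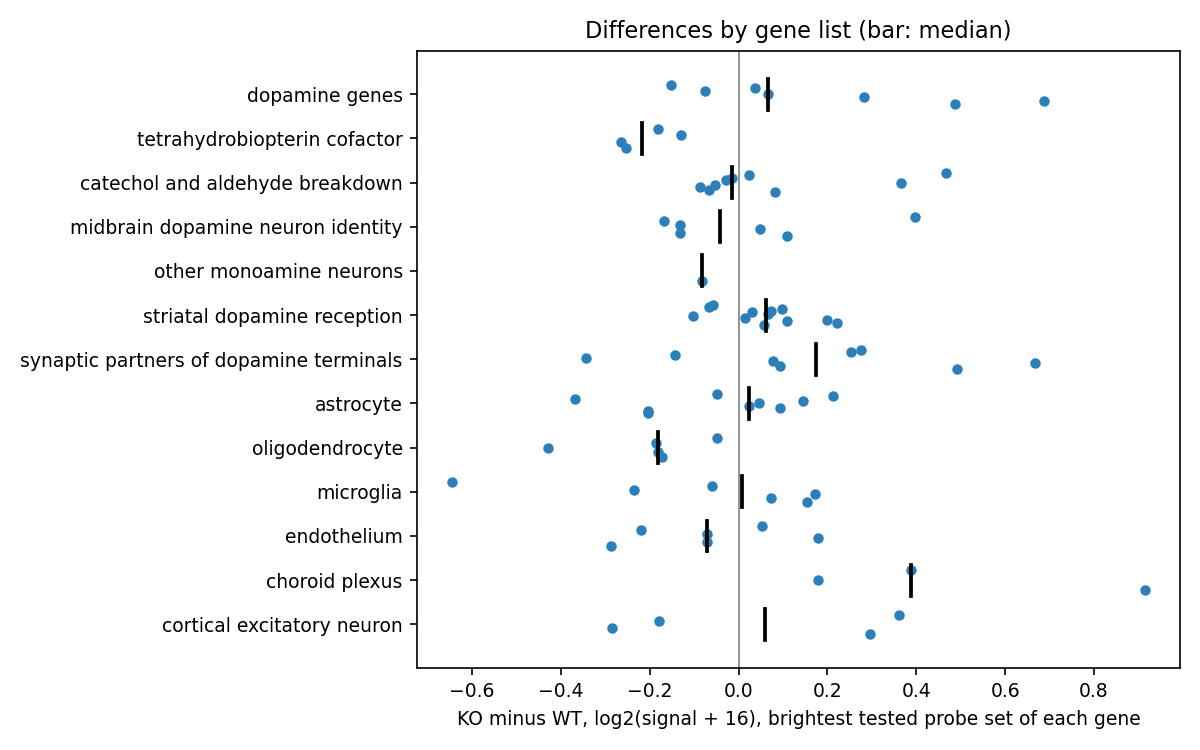
KO minus WT difference on the log2(signal + 16) scale of the brightest tested probe set of each gene (points), by gene list, with the list median as a bar. The 4 tetrahydrobiopterin genes lie below 0 at a median of -0.22, and Ddc at 0.69 and Th at 0.49 lie at the right end of the dopamine genes.

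By likeness over the 6 arrays, on the log2(signal + 16) scale, Maob was closest to a probe set of its chromosomal neighbour Maoa. Among 22670 probe sets of other named genes, Maoa 1442676_at ranked first (Pearson r = 0.989), while the other Maoa probe set had r = -0.231. Next came Ccdc92 (0.983), Nol8 (0.982), Fam120c (0.982) and B230219D22Rik (0.981). For Th the closest were Rnd3 (0.994), Ik (0.991), Phax (0.99), Sfpq (0.989) and Cacnb4 (0.987). Of the 22670 probe sets compared, 177 exceeded 0.9 for Maob, and 208 did for Th. The values named are the top of a long ranking over only 6 arrays. They are given as a description with no test.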

How the data were processed

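Striatal RNA of 3 KO and 3 WT mice was measured on 1 Affymetrix array each. Per the labels' protocols, RNeasy (Qiagen) extracts were biotin-labelled. The deposited intensity values are linear, 1 per probe set, and were made by the authors with MAS5, per the submitters' processing notes; version and target: not given in the sources used here. A platform annotation gives 1 gene symbol to 34945 probe sets, several to 932 and lists no gene for 9160; of the single ones 34741 matched RefSeq (GRCm38.p6), which supplied current names.

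Signals were analysed as log2(signal + 16). The 64 control probe sets and the dimmest 40% by mean log2 value (signal up to 26.8) were left out, leaving 27022. limma 3.58.1 in R 4.3.3 (lmFit, eBayes with trend) compared KO with WT, with Benjamini-Hochberg adjustment over all probe sets tested. Single values also had a two-sided exact permutation test. Alternatives were quantile or median scaling, offsets of 1 and 64, other filters, variance models, the replicate number as a block, a threshold of 0.1, gene means, and each mouse left out. The procedure was tested on simulated data. The number of arrays limits the precision.

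The members and lists were chosen with earlier results of these data known. All member probe sets are named; of other lists, called genes or otherwise the 2 with the smallest p by their brightest tested probe set, and for likeness the 5 highest correlations. Other genes were named after their values were seen.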

Additional observations from a re-analysis of the deposited data

How the results depend on the processing

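Over the array, 127 probe sets were called, 37.8% of them higher in KO; centring arrays on their medians gave 116, 50.9% higher, and put the median of all differences at 0.039, against -0.005. The count was 52 with no filter, 25 without the intensity trend, 194 at an adjusted p under 0.1, 37 with gene means, and 65 (without KO 1) to 102 with 1 mouse left out, with 73 when KO 2 and 70 when WT 2 was left out. Among the 11 dopamine probe sets the count was 0, and 1, Ddc, with arrays centred on their medians, an offset of 64, a filter at the 60th percentile, robust variance estimation, an adjusted p under 0.1, or the replicate block (difference 0.69, adjusted p = 0.0332). It was 0 without any 1 mouse (0 to 0), where the Ddc adjusted p ran from 0.0558 to 0.227. Deviations of same-numbered mice correlated at -0.009, -0.035 and 0.017, which shows no pairing by replicate number but cannot exclude one. The block took the count over the array to 100. Th, Ddc, Maob and Maoa 1442676_at kept their direction under all alternatives that tested them. Signs turned only for differences that passed in no setting. With gene means Nr4a2 was -0.068 and Maoa -0.099, and with centred arrays Nr4a2 1447863_s_at was 0.004. With 1 mouse left out, Slc18a2 ran from -0.026 to 0.487, Nr4a2 1455034_at from -0.51 to 0.45, 1447863_s_at from -0.55 to 0.33, 1450750_a_at from -0.37 to 0.21 and 1450749_a_at from -0.506 to 0.063, Aldh1a1 from -0.201 to 0.069 and Maoa 1428667_at from -0.041 to 0.156. Without KO 3, Slc18a2 differed by 0.209, Aldh1a1 by 0.034, Maob by -0.187, Maoa 1428667_at by 0.156 and Maoa 1442676_at by -0.305. For Nr4a2 without KO 3, 1447863_s_at differed by -0.528, 1450750_a_at by -0.373 and 1450749_a_at by -0.506. The cause of the turned signs was not tested. Signals near background limit Gch1 and Slc6a3.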

Other observations

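No synaptic terminal gene passed the test. Of 8 tested, 6 were higher and 2 lower in KO (median 0.17, 0 calls in limma). At an unadjusted p under 0.05, 3 were higher and 1 lower, where 4.11% of all probe sets tested were higher and 5.06% lower. Cplx1, a complexin of vesicle release, averaged 2636 ± 92.1 in KO and 3371 ± 499.5 in WT (SD, n = 3 each), a limma difference of -0.34 at an adjusted p of 0.202. Lrrk2, a kinase mutated in familial Parkinson disease, averaged 729.2 ± 24.7 in KO and 601.5 ± 66 in WT, a limma difference of 0.28 at an adjusted p of 0.333. In both the groups did not overlap, nor did they in Sv2c. It averaged 50.7 ± 3.16 in KO and 31.5 ± 4.34 in WT, a limma difference of 0.49 at an adjusted p of 0.416. Over the whole array 6.52% of probe sets tested lay higher in all KO mice and 7.88% lower.

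Glial and vascular lists had 0 calls in limma, and each had 1 gene at an unadjusted p under 0.05. Each of these was lower in KO, as 5.06% of all probe sets tested were at that level. All 5 oligodendrocyte genes tested were lower in KO (median -0.18), led by Mag, a myelin-associated glycoprotein, at 521.5 ± 35 in KO and 709.9 ± 88.8 in WT (-0.43, limma adjusted p = 0.109), and by Mobp (-0.19). Of 9 astrocyte genes, 5 were higher and 4 lower (median 0.02), with S100b at -0.37 (adjusted p = 0.112) and Gja1 at 0.14. Of 6 microglial genes, 3 were higher and 3 lower (median 0.007), with Aif1 at -0.65 (adjusted p = 0.342) and P2ry12 at -0.23. Of 6 endothelial genes, 2 were higher and 4 lower (median -0.07), with Slco1a4 at -0.22 (adjusted p = 0.53) and Cldn5 at -0.29. Of the genes listed for midbrain dopamine neurons, 6 were tested, 3 higher and 3 lower (median -0.04), with Kcnj6 at 0.40 (limma adjusted p = 0.643) and Calb1 at -0.13. The only tested gene of other monoamine neurons, the transporter Slc29a4, differed by -0.08. Cortical markers had a median of 0.06, with Neurod1 at 0.36 and Tbr1 at 0.30.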
